A study of Mus musculus with 8 samples.

Results

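Pecam1, Esam and Egfl7 are 3 genes of blood vessel endothelium, chosen by symbol among the 50952 genes of an RNA table from mouse subcutaneous white fat. The mice were wild-type C57BL/6J animals that either ate ad libitum (AL) or had their calories restricted (CR). Restriction began at 3 months of age and lasted 6 months, so that fat was taken at 9 months. Of 8 labelled mice, 4 on each diet, 7 libraries have a column here, namely AL2, AL3 and AL4 for AL and CR1 to CR4 for CR. The study asked how restriction alters gene expression and splicing in this depot. Its values are TPM, reads per base of a gene scaled so that every library has the same total. All 3 genes were chosen with their difference between the diets in these same libraries already known. That difference is therefore given below as a description, with no test.

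Endothelial cells line blood vessels and are held together by adhesion molecules at their contacts. Pecam1 encodes CD31, an immunoglobulin-family adhesion molecule of endothelial contacts that is also carried by platelets and leukocytes. Esam encodes a related adhesion molecule of the junctional adhesion molecule family, found at endothelial tight junctions and on platelets. Egfl7 encodes a secreted protein with EGF-like domains that endothelial cells deposit in the vessel matrix, where it can bind Notch receptors, and its gene is the host of the microRNA miR-126. In white fat the capillary bed delivers the fatty acids that adipocytes store.

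In GRCm38 coordinates of GENCODE M21, which is not the GRCm39 build named by the submitters, Pecam1 is on chromosome 11 at 106654217 to 106750628 (minus strand) and Esam on chromosome 9 at 37528078 to 37538319 (plus strand). Neither overlaps another annotated gene. Egfl7 is on chromosome 2 at 26580014 to 26593120 (plus strand) and overlaps 4 annotated genes, which are Mir126a, Mir126b, the model Gm20532 and Agpat2 on the opposite strand. The stretch encoding miR-126a falls in an intron of 7 protein-coding Egfl7 transcripts and in no exon of any of them. Mir126a, Mir126b and Gm20532 were listed at 0 in all 7 libraries, and Agpat2 was not analysed here. Libraries made from long RNA do not capture mature microRNAs well, so these zeros give no level of miR-126. Its mature strand, from RefSeq (GRCm38.p6), is shown because it is made from the same primary transcript as Egfl7, with the seed (bases 2 to 8) in capitals.
mmu-miR-126a-3p: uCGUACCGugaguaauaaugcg

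Egfl7 also has several start sites. RefSeq windows of 250 bases before to 50 after a start (GRCm38.p6) were given for 3 starts of Egfl7 and for 0 of Pecam1 and Esam. ETS factors such as Erg and Fli1, whose own transcripts are described below, are known regulators of endothelial genes and bind sequences around GGAA. That core alone is in 96.0% of all 32851 windows and so marks nothing. The longer form AGGAAGT, on either strand, was in 2 of the 3 Egfl7 windows and in 9.35% of all windows. Both windows are shown with it in capitals (written ACTTCCT where it reads on the minus strand).
Egfl7 window 1, chr2:26580833-26581132, plus strand: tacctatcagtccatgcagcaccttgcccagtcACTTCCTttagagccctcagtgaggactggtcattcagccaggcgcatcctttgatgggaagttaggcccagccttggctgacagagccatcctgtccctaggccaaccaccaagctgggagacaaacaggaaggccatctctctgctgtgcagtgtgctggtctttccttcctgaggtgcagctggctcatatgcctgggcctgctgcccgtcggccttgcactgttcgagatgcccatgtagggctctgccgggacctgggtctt
Egfl7 window 2, chr2:26583615-26583914, plus strand: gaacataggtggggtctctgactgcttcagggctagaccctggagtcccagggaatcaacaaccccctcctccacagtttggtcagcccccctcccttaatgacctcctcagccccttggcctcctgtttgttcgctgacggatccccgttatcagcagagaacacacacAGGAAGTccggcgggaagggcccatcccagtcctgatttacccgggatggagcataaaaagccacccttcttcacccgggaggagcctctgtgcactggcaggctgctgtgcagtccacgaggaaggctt
The match began 217 bases before the start in window 1 and 80 bases before it in window 2. Of the 22 endothelial genes of the identity list below that had a window, 5 held AGGAAGT (Egfl7, Eng, Flt1, Ly6c1 and Myct1), in 6 of their 31 windows. The GATA letters GATAA were in 10 of those 31 windows and in 25.4% of all windows. AACAAT, a SOX core, was in 5 of the 31 and in 10.7% of all. These are matches of letters and do not show binding.

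Depth was read from the size of the smallest TPM steps. Genes of known length held 5164059 to 8897790 reads in AL and 4147850 to 5626671 in CR. The sample labels state 400000000 reads per sample, which is far more, and the reason for this gap was not tested. Counting errors below rest on the recovered reads. Markers fixed for the tissue were high where they had a row, with 6 of 12 adipocyte genes summing to 65545 to 80106 TPM in AL and 50534 to 57925 TPM in CR. Most of that sum was the gene Cfd, with a mean of 56653 TPM in AL and 39203 TPM in CR. The 8 epithelial markers summed to 1.68 to 4.02 TPM in AL and 0.831 to 13.1 TPM in CR. The muscle gene Myh1 stood at 64.2 TPM in AL2 and at 0.325 to 9.80 TPM in the other 6 libraries. The authors' deposited table as used here starts at a false discovery rate of 0.05, and genes below that were not analysed here. Each list below is therefore counted over its genes with a row. Every gene said below to fall or rise by limma had a false discovery rate of at least 0.05 in the authors' table. The rows at hand held 49.0% to 53.1% of the TPM total in AL and 42.9% to 45.0% in CR. On the deposited scale the median change of all 9883 tested genes was -0.20 in log2(TPM + 1), CR minus AL, so each change is also given after median-ratio scaling, which divides a library by its median ratio to the others (median -0.01).

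Pecam1 had the highest TPM of these 3 genes in every library. Its AL values were 97.2 TPM in AL2, 105 in AL3 and 95.2 in AL4, and its CR values 81.9 TPM in CR1, 76.4 in CR2, 66.4 in CR3 and 68.8 in CR4. All 4 CR libraries lay below all 3 AL libraries, and AL3 was the highest. The AL mean was 99.2 ± 5.26 TPM (SD, n = 3) and the CR mean 73.4 ± 7.11 TPM (SD, n = 4), which is 26.0% lower in CR. The log2 change was -0.43 ± 0.08 (standard error) on the deposited scale and -0.22 ± 0.09 after median-ratio scaling. These values rest on 1280 to 3280 reads per library, a counting error of 1.75% to 2.80%, while the spread between mice was 5.30% of the mean in AL and 9.69% in CR.

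Esam had the largest difference between the diets of the 3. Its AL values were 70.7 TPM in AL2, 79.3 in AL3 and 73.4 in AL4, and its CR values 56.5 TPM in CR1, 55.8 in CR2, 40.4 in CR3 and 46.1 in CR4. The diets did not overlap, and CR3 and CR4 were the lowest, as for Pecam1. The AL mean was 74.5 ± 4.39 TPM (SD, n = 3) and the CR mean 49.7 ± 7.81 TPM (SD, n = 4), 33.2% lower in CR. Its log2 change was -0.59 ± 0.12 on the deposited scale and -0.37 ± 0.13 after scaling. With 395 to 1164 reads per library the counting error was 2.93% to 5.03%, against a spread of 5.90% of the mean within AL and 15.7% within CR.

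Egfl7 gave 69.3 TPM in AL2, 76.4 in AL3 and 58.6 in AL4, and 52.0 TPM in CR1, 47.7 in CR2, 48.4 in CR3 and 57.1 in CR4. The gap between the diets was narrow here, with AL4 just above CR4. Their exact Poisson 95% intervals, which cover counting error only, overlapped (55.3 to 62.1 and 52.7 to 61.8 TPM). The AL mean was 68.1 ± 8.95 TPM (SD, n = 3) and the CR mean 51.3 ± 4.31 TPM (SD, n = 4), 24.7% lower in CR. The log2 change was -0.40 ± 0.10 on the deposited scale and -0.18 ± 0.09 after scaling. After that scaling AL4 was at 54.9 and lay inside the CR range of 50.6 to 59.9, so that Egfl7 overlapped between the diets. Pecam1 was then separated only by AL4 at 89.2 and CR1 at 88.6, a gap smaller than their counting errors of 1.75% and 2.30%. In the authors' deposited table the false discovery rate was 0.0702 for Esam, 0.366 for Pecam1 and 0.388 for Egfl7.

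Groups without overlap and lower in CR were seen for 31.1% of tested genes on the deposited scale and for 12.7% after scaling (higher in CR, 2.17% and 13.9%), and nothing is read from the members' own share. Of all tested genes, 8.71% had a change at or below that of Esam, 22.8% at or below that of Pecam1 and 26.7% at or below that of Egfl7 on the deposited scale. Without AL3, the library highest for all 3 genes, the log2 changes on that scale were -0.39 for Pecam1, -0.54 for Esam and -0.31 for Egfl7. In bulk tissue, fewer endothelial cells and less RNA per cell cannot be told apart.

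**Figure D1:**
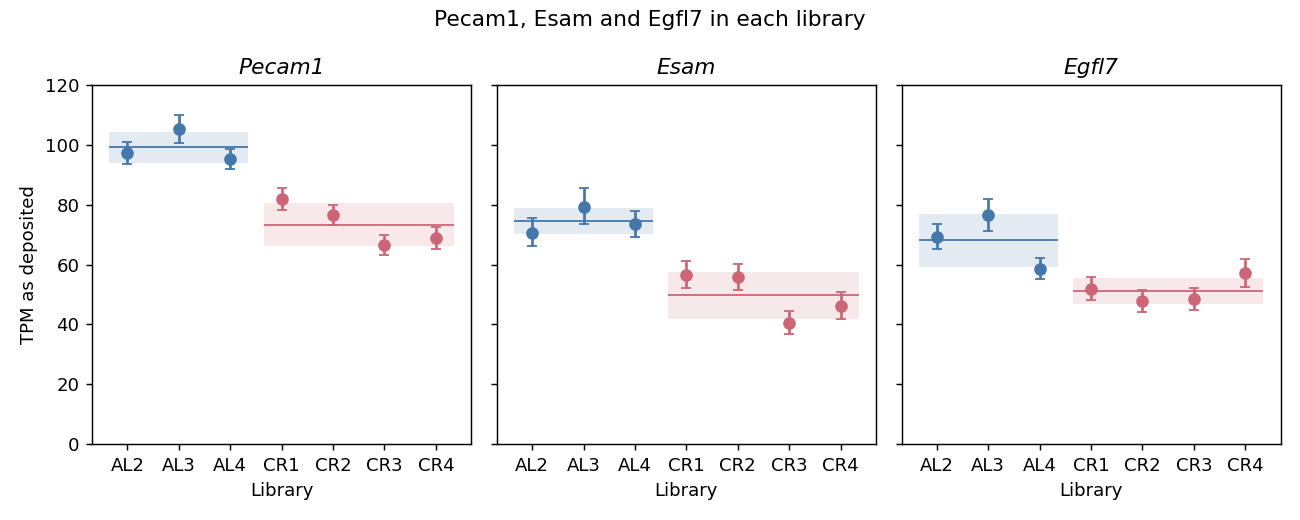
TPM as deposited (vertical axis) of Pecam1, Esam and Egfl7 in the 3 AL (blue) and 4 CR (red) libraries. Bars are exact Poisson 95% intervals of the recovered reads, and lines with bands are the diet means ± SD. Pecam1 lies between 95.2 and 105 TPM in AL and between 66.4 and 81.9 TPM in CR, while AL4 and CR4 are close for Egfl7.

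Because TPM are per length, the levels of the 3 genes can be set against each other within a library, a comparison that the choice of genes did not use. Pecam1 was above Esam in 7 of 7 libraries, by 1.42 times on average, and above Egfl7 in 7 of 7, by 1.44 times. Both differences gave p = 0.0156 in an exact paired sign-flip permutation test (two-sided, n = 7 libraries), the smallest p that 128 sign patterns allow, and 0.0234 after Benjamini-Hochberg adjustment over the 3 pairs. The test covers spread between libraries only. A gene's length enters its TPM equally in all 7 libraries, so the test cannot judge whether that length suits the transcripts present. Esam and Egfl7 did not differ beyond their spread, with a ratio of 1.02, Esam above in 5 of 7 libraries and p = 0.734 in the same exact test. Among the 30 endothelial identity genes with a row, Pecam1 ranked 5, Esam 7 and Egfl7 9 by mean TPM. Cdh5, which encodes VE-cadherin of endothelial adherens junctions, ranked 1.

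Ratios within a library do not depend on how it is scaled. Esam relative to Pecam1 was 0.728, 0.754 and 0.771 in AL2, AL3 and AL4, and 0.690, 0.730, 0.609 and 0.670 in CR1 to CR4. The 2 diets overlapped by the single library CR2. Egfl7 relative to Pecam1 was 0.616 to 0.727 in AL and 0.624 to 0.830 in CR, with the highest value in CR4. Relative to Cdh5, which was described after its values were seen, Esam was at 0.531 to 0.581 in AL and 0.417 to 0.498 in CR. Pecam1 relative to Cdh5 overlapped between the diets, at 0.728 to 0.771 in AL and 0.629 to 0.743 in CR. Egfl7 relative to Cdh5 also overlapped, at 0.448 to 0.560 in AL and 0.393 to 0.617 in CR. No test is given for these ratios, since they carry the same contrast.

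Variation among mice of the same diet was also not used in choosing the genes. After scaling, Pecam1 and Esam were above their CR mean in CR1 (by 0.19 and 0.22 in log2) and in CR2 (by 0.07 and 0.19). They were below it in CR3 (-0.16 and -0.30) and CR4 (-0.10 and -0.11). Cdh5 had the same signs in CR, at 0.22, 0.18, -0.17 and -0.23. Egfl7 had other signs, at 0.05, -0.09, -0.10 and 0.14 in CR1 to CR4, so that it was above its mean in CR4 and below it in CR2. In AL the 3 libraries lay within 0.03 of their mean for Pecam1 and Esam, whereas Egfl7 was at 0.08, 0.09 and -0.17 in AL2, AL3 and AL4.

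The root-mean-square difference between 2 such profiles over the 7 libraries was 0.07 for Pecam1 and Esam and 0.07 for Pecam1 and Cdh5. It was 0.14 for Pecam1 and Egfl7 and 0.19 for Esam and Egfl7. The size of the within-diet deviations themselves was 0.10 for Pecam1, 0.16 for Esam and 0.11 for Egfl7. Of all tested genes, 32.4%, 56.7% and 34.2% varied less than these.

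**Figure D2:**
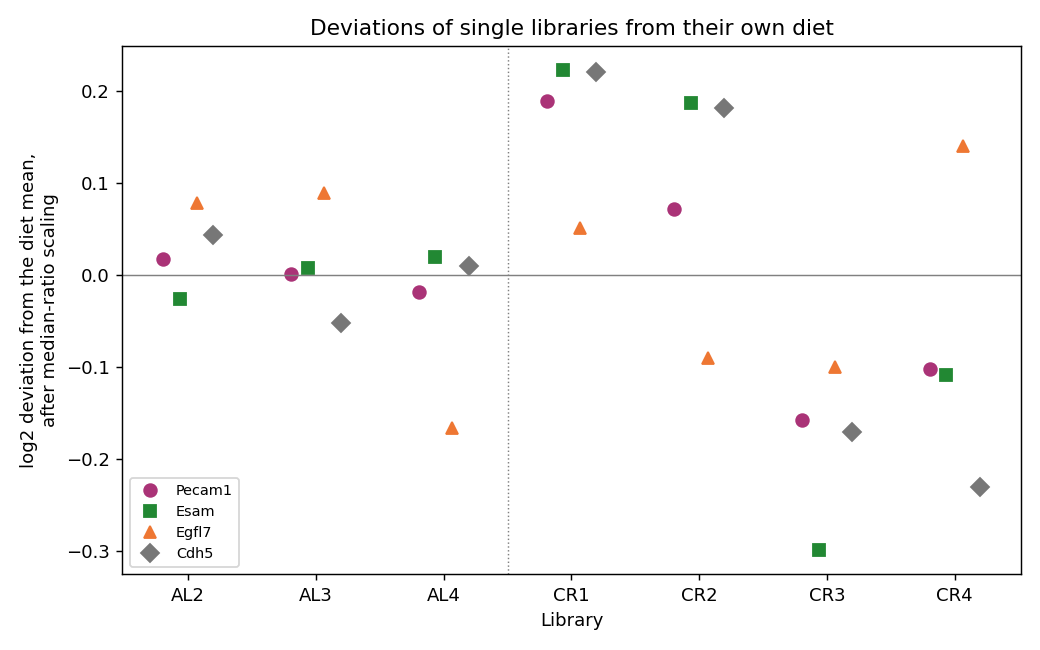
Deviation of each library from the mean of its own diet (vertical axis, log2 after median-ratio scaling) for Pecam1, Esam, Egfl7 and Cdh5 in the 7 libraries. In CR, Pecam1, Esam and Cdh5 are above 0 in CR1 and CR2 and below 0 in CR3 and CR4, while Egfl7 is above 0 in CR1 and CR4.

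Genes with a profile like the mean of the 3 were sought among 5877 named genes with a mean of at least 5 TPM. Centred over all 7 libraries, the nearest were Top3a (a DNA topoisomerase), Ptprb (the endothelial receptor phosphatase VE-PTP), Dcaf7, the RNA-binding protein gene Ptbp3 and Adgra2 (GPR124, a receptor of brain endothelium). Their root-mean-square differences were 0.041 to 0.054 in log2, beside 0.161 for the size of the profile itself. Centred within each diet, which leaves the diet difference out, the nearest were Cd93 (a lectin-like receptor of endothelium), Mfsd11, Top3a, Dusp16 and Fgd5 (a guanine nucleotide exchange factor of endothelium). These differed by 0.030 to 0.038, beside 0.098 for the profile. Among so many genes some profiles over 7 libraries will lie this close, and no test is given. By the same measure the other endothelial identity genes were spread widely. Centred over all libraries they ranked from 2 (Ptprb) to 5078 (Tspan7) of 5877, with Cdh5 at 604. Centred within each diet they ranked from 1 (Cd93) to 4818 (Ushbp1), with Cdh5 at 808.

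The wider endothelial identity list held 38 genes, of which 30 had a row and were tested across all genes with limma on log2(TPM + 1). Leaving out Pecam1, Esam and Egfl7, which were chosen on this contrast, 5 of 27 fell on the deposited scale and 0 rose at a Benjamini-Hochberg adjusted p under 0.05. Of all tested genes 17.6% fell and 0.546% rose, so this share was close to the background. The median change of these 27 was -0.31 (-0.09 after scaling), beside -0.20 (-0.01) for all tested genes. Of the 27, 25 had a change below 0, as did 73.8% of all tested genes. After scaling 0 of 27 were called by limma, with 3 lower and 1 higher at an unadjusted p under 0.05, and 19 of 27 were below 0 beside 51.4% of all genes. On that scale 0.0506% of all tested genes were called, every one of them higher in CR, and 29.0% had an unadjusted p under 0.05, 13.2% being lower. With single libraries left out the count of 5 became 0 without AL3 (9 at an unadjusted p under 0.05), 1 without CR2 or CR3, 2 without CR4, 3 without AL2, 4 without CR1 and 5 without AL4. With voom on the recovered reads it was 11.

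The 5 that fell on the deposited scale were Tek, Ptprb, She, Mmrn2 and Erg. Their false discovery rates in the authors' deposited table ran from 0.0917 for Tek to 0.613 for Erg, so none was under 0.05 there. Tek encodes TIE2, the receptor for angiopoietins, and averaged 45.6 ± 5.49 TPM (SD, n = 3) in the AL libraries and 31.0 ± 3.79 TPM (SD, n = 4) in the CR libraries. Its log2 change was -0.54 ± 0.12 (limma adjusted p = 0.0210), and -0.33 after scaling (adjusted p = 0.122). Ptprb, which dephosphorylates TIE2 and VE-cadherin, went from 51.1 ± 6.32 to 37.0 ± 3.24 TPM (-0.45 ± 0.10, limma adjusted p = 0.0223). Mmrn2, a matrix glycoprotein of vessels, went from 50.6 ± 4.58 to 38.7 ± 4.73 TPM, and the adaptor gene She from 10.5 ± 0.855 to 7.51 ± 0.670 TPM. Cdh5 did not pass, at 133 ± 2.82 TPM in AL and 109 ± 16.0 TPM in CR (limma adjusted p = 0.0846). Its values were 123 and 121 TPM in CR1 and CR2, and 96.9 and 92.6 TPM in CR3 and CR4.

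**Figure D3:**
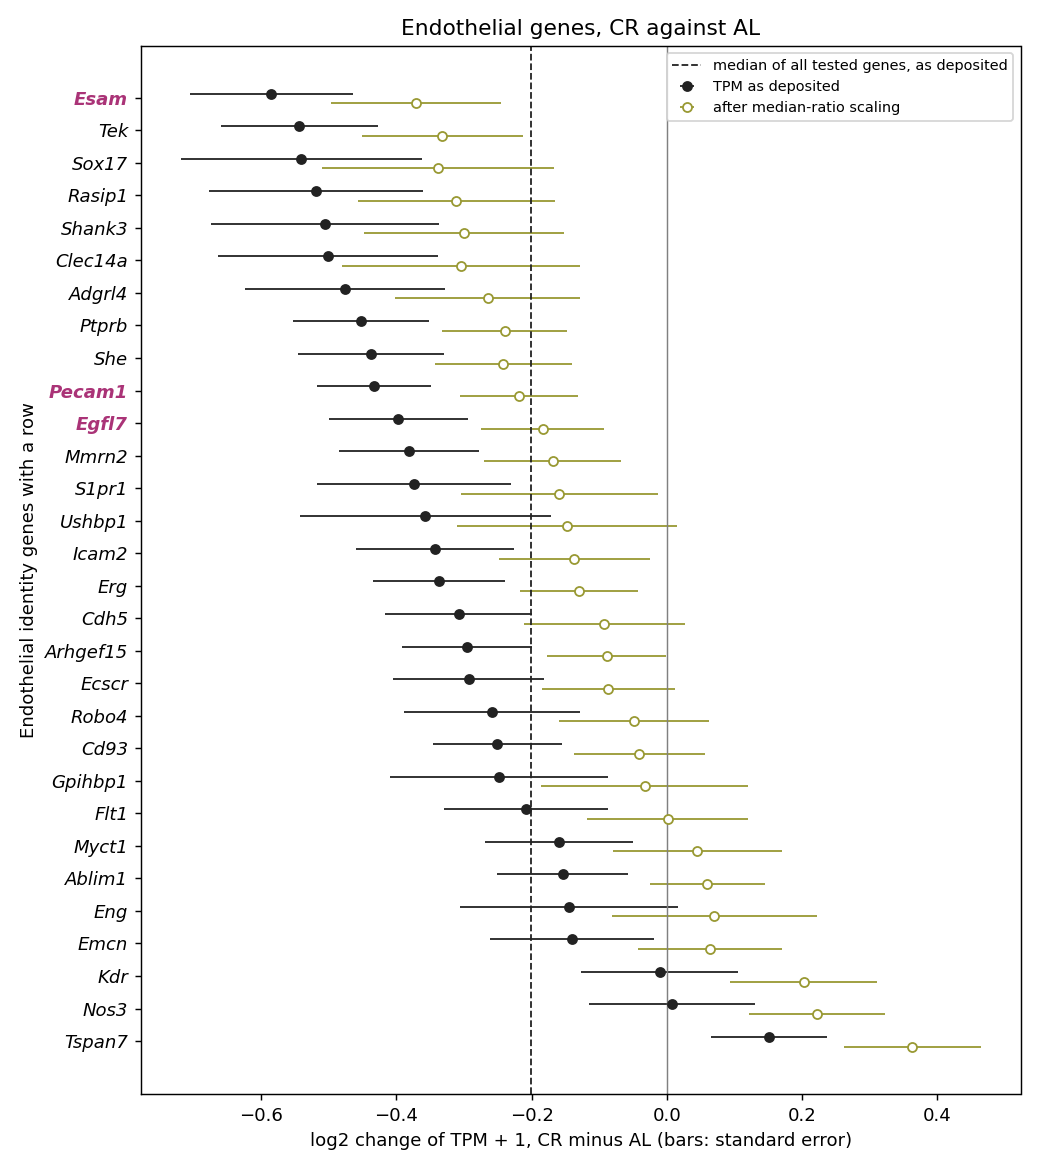
Log2 change of TPM + 1, CR minus AL (horizontal axis, bars are standard errors), for the 30 endothelial identity genes with a row, as deposited (filled) and after median-ratio scaling (open). The dashed line is the median of all tested genes, -0.20. Esam has the lowest value (-0.59), Pecam1 and Egfl7 rank 10 and 11, and Kdr, Nos3 and Tspan7 lie at the other end.

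Junction molecules were counted from a list of 31 genes, of which 19 had a row and 17 were tested. On the deposited scale 5 of the 15 other than Pecam1 and Esam fell and 0 rose, beside 17.6% and 0.546% of all tested genes. After scaling limma called 0 of 15, with 5 lower and 1 higher at an unadjusted p under 0.05 (13.2% lower and 29.0% in either direction among all). Within the family of Esam, Jam2 (which encodes JAM-B) averaged 38.8 ± 0.886 TPM (SD, n = 3) in the AL libraries and 27.7 ± 3.20 TPM (SD, n = 4) in the CR libraries. It fell on the deposited scale, its log2 change being -0.48 ± 0.09 (limma adjusted p = 0.0176) and -0.27 after scaling. F11r, which encodes JAM-A, stood at 69.1 ± 2.66 and 66.2 ± 5.94 TPM, a change of -0.07 ± 0.08 that turned to 0.15 after scaling (limma adjusted p = 0.591 and 0.233). The intervals of the 2 changes on the deposited scale, from -0.70 to -0.26 for Jam2 and from -0.25 to 0.12 for F11r (95%), did not overlap. The difference between the 2 genes was not tested, and Jam3 was not analysed here. Ctnnd1, the catenin p120 that stabilises cadherins, fell on that scale from 14.8 ± 1.57 to 10.5 ± 0.632 TPM (-0.46 ± 0.10, limma adjusted p = 0.0212). The 5 calls became 1 without CR3, 2 without AL2, AL3, CR1 or CR2, and 3 without AL4 or CR4.

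Of 16 genes for signalling partners of CD31, 9 were tested, and on the deposited scale 5 of 9 fell and 0 rose, beside 17.6% and 0.546% of all tested genes. After scaling limma called 0, with 3 lower at an unadjusted p under 0.05 (13.2% of all). Fyn and Lyn, kinases of the Src family that can phosphorylate the CD31 tail, went from 27.7 ± 4.15 to 17.3 ± 3.55 TPM and from 23.3 ± 5.79 to 15.0 ± 1.46 TPM (limma adjusted p = 0.0301 and 0.0356). The adaptor gene Grb2 went from 84.3 ± 2.21 to 68.8 ± 1.19 TPM. Its log2 change of -0.29 shrank to -0.07 after scaling (limma adjusted p = 0.0150 and 0.455). The phosphoinositide 3-kinase subunit gene Pik3r1 went from 252 ± 37.3 to 153 ± 37.6 TPM. Its change was -0.74, and -0.52 after scaling (limma adjusted p = 0.0285 and 0.125). The authors' false discovery rate was 0.771 for Grb2 and 0.0554 for Pik3r1. Ptpn11, which encodes the phosphatase SHP2 that docks on CD31 and was described after its values were seen, was at 126 ± 21.8 and 117 ± 9.54 TPM and did not pass, its log2 change of -0.09 turning to 0.12 after scaling (limma adjusted p = 0.597 and 0.523). These genes are active in many cell types of fat. The 5 calls became 2 without AL3, CR1 or CR4, 3 without AL2, and 1 without CR2 or CR3.

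The list for EGFL7 and the Notch pathway held 20 genes, of which 12 were tested. On the deposited scale 5 of the 11 other than Egfl7 fell and 0 rose, beside 17.6% and 0.546% of all tested genes. After scaling limma called 0 of 11, with 5 lower at an unadjusted p under 0.05 (13.2% of all). Jag1, which encodes a Notch ligand, averaged 45.2 ± 5.26 TPM (SD, n = 3) in the AL libraries and 29.9 ± 2.12 TPM (SD, n = 4) in the CR libraries, with a log2 change of -0.58 ± 0.10 (limma adjusted p = 0.0138). The Notch coactivator gene Maml1 went from 17.7 ± 1.94 to 11.7 ± 1.29 TPM and the Notch target and feedback inhibitor gene Nrarp from 4.12 ± 0.596 to 2.31 ± 0.309 TPM. Egfl8, the paralog of Egfl7, was far less abundant and fell on that scale from 5.90 ± 1.04 to 3.36 ± 0.213 TPM (-0.65 ± 0.14, limma adjusted p = 0.0214). It rests on 17 to 54 reads per library. The ligand gene Dll4 of arterial endothelium did not pass, at 14.6 ± 3.39 and 13.0 ± 1.20 TPM, with a log2 change of -0.13 that turned to 0.07 after scaling. These 5 calls became 1 without AL3, 2 without CR2, and 3 without AL2, CR1, CR3 or CR4.

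Of 30 endothelial transcription factors, which drive the endothelial programme, 16 were tested. On the deposited scale 8 of 16 fell and 0 rose, beside 17.6% and 0.546% of all tested genes. All 16 had a change below 0 on both scales, beside 73.8% of all tested genes as deposited and 51.4% after scaling. Factors of the list without a row are not in these counts, and their direction is not known here. The median change was -0.45 (all tested genes -0.20), and -0.25 after scaling (all -0.01), when limma called 0, with 5 lower at an unadjusted p under 0.05 (13.2% of all). Fli1, an ETS factor, averaged 28.1 ± 4.88 TPM (SD, n = 3) in the AL libraries and 18.2 ± 1.31 TPM (SD, n = 4) in the CR libraries, a log2 change of -0.59 ± 0.12 (limma adjusted p = 0.0180) and -0.38 after scaling (adjusted p = 0.0777). The ETS repressor gene Elk3 went from 25.4 ± 1.20 to 18.0 ± 1.55 TPM, Sox7 from 15.1 ± 0.721 to 10.7 ± 1.19 TPM, and the homeobox gene Meox2 from 39.6 ± 1.99 to 30.4 ± 1.20 TPM. Erg, an ETS factor of endothelium that is also counted in the identity list, went from 22.4 ± 2.74 to 17.5 ± 0.919 TPM (-0.34 ± 0.10, limma adjusted p = 0.0475). The 8 calls became 3 to 7 when single libraries were left out, with 3 without CR2, 4 without AL3, CR1, CR3 or CR4, 6 without AL2 and 7 without AL4.

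**Figure D4:**
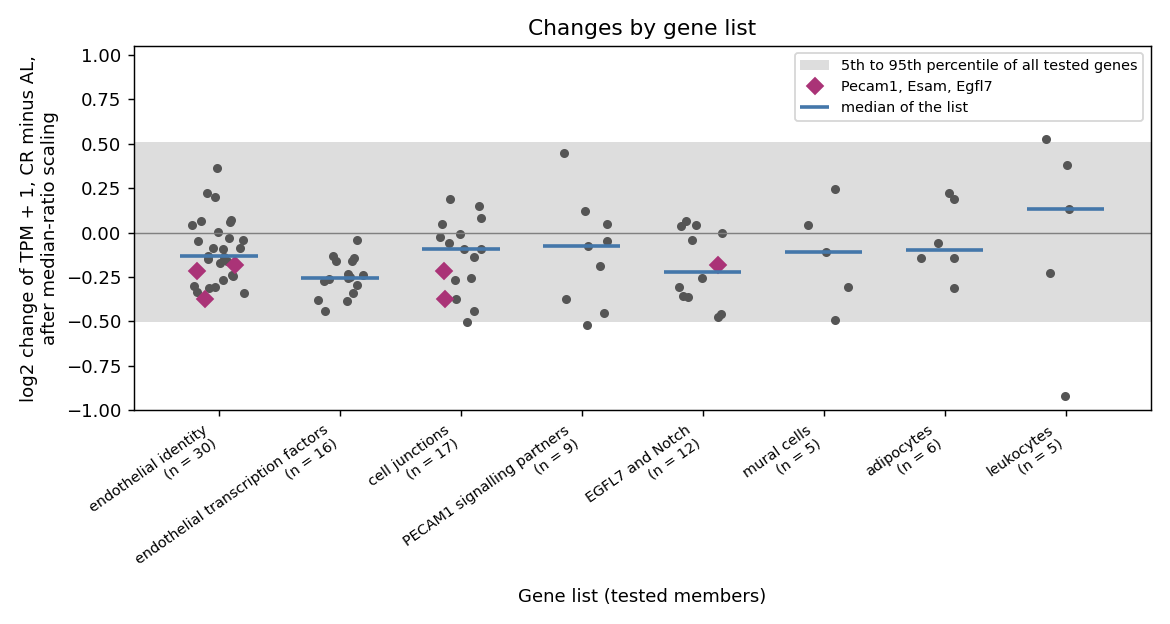
Log2 change of TPM + 1 after median-ratio scaling, CR minus AL (vertical axis), for the tested genes of 8 lists. Diamonds are Pecam1, Esam and Egfl7, and grey spans the 5th to 95th percentile of all tested genes (-0.50 to 0.51). Blue lines are list medians that include the diamonds (endothelial identity -0.13, and -0.09 without them). Nearly all genes lie inside the grey span, and the 16 transcription factors are all below 0.

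Other cells that carry CD31 or ESAM, or that lie beside endothelium, were followed through their markers. In mural cells, which wrap capillaries, 5 of 14 markers had a row and their sum was 177 to 188 TPM in AL and 125 to 156 TPM in CR. The pericyte gene Rgs5 was the 1 of 5 that fell on the deposited scale, from 129 ± 8.16 to 89.9 ± 13.2 TPM (limma adjusted p = 0.0203). That share was close to the 17.6% of all tested genes that fell. After scaling limma called 0, with 1 lower at an unadjusted p under 0.05 (13.2% of all). Of 9 platelet markers with a row 2 were tested and limma called 0 on either scale. At an unadjusted p under 0.05 there was 1 on the deposited scale (35.3% of all tested genes, 33.2% lower) and 0 after scaling. These 9 summed to 4.78 to 7.50 TPM in AL and 3.45 to 6.34 TPM in CR, Gp1bb being listed at 0. The chemokine gene Ppbp was at 3.74 ± 1.54 and 1.75 ± 0.922 TPM and Gp1ba at 0.968 ± 0.350 and 1.30 ± 0.0859 TPM.

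Leukocyte markers were also low, with 10 of 19 having a row and a sum of 8.56 to 16.2 TPM in AL and 7.82 to 16.2 TPM in CR. Of 5 tested, limma called 0 on either scale. At an unadjusted p under 0.05 there was 1 on the deposited scale (35.3% of all tested genes) and 2 after scaling, 1 in each direction (29.0% of all). The lymphocyte genes Nkg7 and Cd79a were at 3.67 ± 0.763 and 2.27 ± 1.25 TPM in AL, and at 5.02 ± 1.32 and 0.575 ± 0.537 TPM in CR. The lymphatic markers summed to 5.03 to 8.02 TPM in AL and 3.30 to 6.06 TPM in CR over 4 of 8 genes, and of 2 tested (Flt4 and Mmrn1) limma called 0, also at an unadjusted p under 0.05. Adipocyte markers with a row numbered 6, of which 1 fell on the deposited scale, close to the 17.6% of all tested genes that fell. This was Plin1, the coat protein of the lipid droplet, from 1936 ± 257 to 1501 ± 82.4 TPM (limma adjusted p = 0.0452). After scaling limma called 0, and none had an unadjusted p under 0.05 (29.0% of all). None of the 12 fibroblast markers had a row here. For red cells, 3 of 7 markers summed to 81.8 to 97.1 TPM in AL and 77.4 to 126 TPM in CR, almost all of it the globin gene Hbb-bt. The part of these cell types in the values of Pecam1, Esam and Egfl7 was not tested.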

How the data were processed

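RNA of each fat sample was measured as TPM, computed by the authors and deposited by Ensembl identifier. A false discovery rate, an adjusted p-value deposited by the authors, stands beside each gene. STAR 2.7.10b, featureCounts 2.0.3, SAMtools 1.17, edgeR 3.38.4, FastQC 0.12.1 and GRCm39 are listed in the submitters' processing notes, without roles. No source used here gives the annotation, the strand setting or the test behind the false discovery rate, so overlapping genes such as Egfl7 and Agpat2 are uncertain. Columns were assigned to diets by name, with 0 left over, and column numbers do not follow mouse numbers.

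A gene was kept if 4 or more libraries reached 1 TPM (9883 genes) and was fitted as log2(TPM + 1) with limma 3.58.1 in R 4.3.3, with diet as the only term and a variance trend. All 9883 two-sided p-values entered 1 Benjamini-Hochberg adjustment, with calls under 0.05. The fit was repeated after median-ratio scaling, and it was tested on simulated data. Reads were recovered as TPM times GENCODE M21 gene length over 1 step per library. Over all libraries, 94.6% of 22041 rows judged came out whole (tolerance 0.05). Python 3.11.15 with scipy 1.17.1 gave permutation tests and intervals.

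The members and the 14 lists were chosen with earlier results of these data known. Some lists share genes, and a shared gene such as Erg is counted in each. Calls of Pecam1, Esam and Egfl7 are left out of every list's count, since the contrast chose them. Named genes were the members, paralogs and overlapping genes, up to 4 called members per list with the smallest adjusted p (or 2 with the highest mean where none was called), and the 5 nearest profiles of each kind. Others are said to be chosen after their values were seen, as were She, Mmrn2, Erg and Dll4.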

Additional observations from a re-analysis of the deposited data

Results flagged for a closer look

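Among the genes named here, 38 CR groups of 4 libraries were examined for a single library far from the others, and 2 stood out, where chance gives about 1 in 20 groups. In CR3, Dcaf7 was at 24.6 TPM and Mfsd11 at 12.8 TPM, each below the other 3 CR libraries by most of the group's range. Both were named because their profile lay near that of Pecam1, Esam and Egfl7. The chance rate does not apply to genes chosen in this way, and their likeness to the 3 is no separate result. Esam and Pecam1 were also lowest in CR3, without meeting this criterion.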

How the results depend on the processing

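Pecam1, Esam and Egfl7 were lower in CR under every alternative run. Their log2 changes were -0.22, -0.37 and -0.18 after median-ratio scaling, and -0.27 for Pecam1 and -0.24 for Egfl7 after quantile normalization. With single libraries left out they ranged from -0.49 to -0.39, -0.65 to -0.49 and -0.50 to -0.31. The 1796 genes called on the deposited scale became 742 with no filter, 5 after quantile normalization and 662 to 1596 with libraries left out. The 5 called after median-ratio scaling became 3 at a pseudocount of 0.1, 2 with no filter, 0 with a mean of at least 5 TPM, 0 with voom (3072 at an unadjusted p under 0.05) and 0 to 71 with libraries left out. The 5 calls among the 27 other endothelial identity genes became 0 with no filter (16 at an unadjusted p under 0.05), 10 with a mean of at least 5 TPM, 3 without the variance trend and 11 with voom. They became 0 after quantile normalization (3 at an unadjusted p under 0.05) or median-ratio scaling (4), and 0 to 5 with libraries left out. The cause of these moves was not tested. Of 35 other named genes, median-ratio scaling ended 22 calls and turned the direction of 4. After quantile normalization and median-ratio scaling these were F11r at 0.10 and 0.15, Mfsd11 at 0.027 and 0.022, Dusp16 at 0.21 and 0.20 and Fgd5 at 0.16 and 0.18. Dusp16 also turned to 0.013 with voom. With libraries left out Dusp16 ranged from -0.065 to 0.080 (above 0 without AL3 or CR3), Fgd5 from -0.087 to 0.035 (above 0 without AL3, CR3 or CR4) and Myh1 from -2.23 to 0.095 (above 0 without AL2). No paired analysis was possible because the table's columns carry no mouse number that matches the labels.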

Other observations

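At the other end of the endothelial list from Esam stood 3 genes, named here, as Gpihbp1 is, after their values were seen. Tspan7, a tetraspanin gene, averaged 39.5 ± 2.78 TPM (SD, n = 3) in the AL libraries and 44.0 ± 3.80 TPM (SD, n = 4) in the CR libraries. Its log2 change was 0.15 on the deposited scale and 0.36 ± 0.10 after scaling (limma adjusted p = 0.246 and 0.0869). After scaling its CR range of 41.1 to 51.9 lay above its AL range of 32.0 to 40.1, as for 13.9% of all tested genes. The authors' false discovery rate of Tspan7 was 0.0645, the lowest among the endothelial identity genes with a row, beside 0.0702 for Esam. Nos3, the endothelial nitric oxide synthase gene, was at 94.7 ± 17.5 and 94.4 ± 8.59 TPM, and Kdr, the gene of the main VEGF receptor of endothelium, at 47.8 ± 7.17 and 47.3 ± 4.78 TPM. Neither passed the test on either scale. Gpihbp1, which brings lipoprotein lipase to the capillary surface, was at 118 ± 22.8 and 98.8 ± 18.0 TPM (limma adjusted p = 0.306).

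Another 3 junction or adhesion genes fell on the deposited scale and were also named after their values were seen. Gja4 and Gja5 encode connexins of arterial endothelium and went from 19.2 ± 1.42 to 12.6 ± 2.25 TPM and from 6.00 ± 0.569 to 3.42 ± 0.976 TPM (limma adjusted p = 0.0259 and 0.0365). Vcam1, a leukocyte adhesion molecule of activated endothelium, went from 9.75 ± 1.65 to 5.95 ± 1.15 TPM (limma adjusted p = 0.0365). After median-ratio scaling their adjusted p lay between 0.124 and 0.139.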
